A study of Saccharomyces cerevisiae with 22 samples.

Results

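Almost all proteins of the mitochondrial ribosome of budding yeast are encoded by nuclear genes, and 54 such genes were followed here. They were taken by name: every array probe whose gene symbol is MRPL, MRPS or MRP followed by a number, without MRP8, which is a cytosolic protein. This gave 54 of the 6373 yeast features on the array, each read by 1 probe in 2 spots. Of these, 37 encode proteins of the large subunit and 17 proteins of the small subunit. The measured quantity was newly made RNA, tagged by 4-thiouracil (4tU), a form of uracil that cells build into RNA while they transcribe it, so a value tells how much RNA of a gene was made and kept over a short labelling window.

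Mitochondrial ribosomes translate the few messages of the mitochondrial genome, chiefly for core subunits of the respiratory chain and ATP synthase. Their proteins are made in the cytosol, imported, and folded in the matrix with the help of the chaperones Ssc1, Hsp60 and Hsp10, whose genes depend on the heat shock factor Hsf1. Many of the proteins have a counterpart in bacterial ribosomes, and others are found only in mitochondria. In budding yeast the messages of many of these genes carry sites for the RNA-binding protein Puf3, and the genes are known to be expressed together when cells change their carbon source.

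The time course compared 2 strains of Saccharomyces cerevisiae with the anchor-away background: a tor1-1 allele, a deleted FPR1 and an RPL13A-FKBP12 fusion, with the markers MET15, his3-1, leu2, lys2 and ura3 and mating type alpha. The tor1-1 allele and the loss of FPR1 remove the usual response to rapamycin. Hsf1-aa also carries Hsf1-FRB-yEGFP, so that rapamycin ties Hsf1 to ribosomal proteins and takes it out of the nucleus, and WT-aa lacks this tag. Cells grew in synthetic complete medium with glucose and received 5 mM 4tU for 6 min before harvest. The slow depletion used 0.15 µM rapamycin, and both strains were harvested before it was added and 15, 30, 60 and 90 min later. It comprised 20 arrays, 2 for each strain and time, with the letters a and b, and all were read against 1 common reference of 4tU-labelled RNA pooled from WT-aa grown without rapamycin. In the standard depletion 1 array per strain was taken at 30 min of 7.5 µM rapamycin, against a pool of BY4742 RNA without 4tU. RNA came from whole cultures, so a change in some of the cells and a smaller change in all of them cannot be told apart.

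Median sample foreground on the slow arrays was 863.5 to 1789 intensity units. All 54 genes lay above background in the sample channel on all 20 slow arrays. The dimmest was MRP21, whose median signal was 2.98 times the background and at its lowest 2.14 times. The next dimmest were MRPL27 at 11.9 times and MRP4 at 13.8 times, and the brightest was MRP2 at 88.7 times. HSF1 signal was lower in Hsf1-aa already before rapamycin, by a log2 difference of -2.17 ± 0.23 (SE). TOR1 and RPL13A passed no test, and FPR1 was not analysed here. The 2 arrays of a group come from independent cultures, per the series description, but all slow arrays of a strain share a running number in their titles. If the 2 arrays of a group were dye swaps of 1 culture, the p-values would measure technical spread only. The titles do not tell whether the times of a strain came from 1 culture.

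The first question was whether removal of Hsf1 from the nucleus altered the making of these RNAs. Of the 54 genes, 0 passed the test between the strains at 0, 15, 30, 60 or 90 min (limma moderated t-statistic, Benjamini-Hochberg adjusted p under 0.05 over all 6353 features tested). The shares of all features that passed were 0.126%, 0.22%, 0.787%, 1.21% and 1.23% at these times. At 90 min the median difference (Hsf1-aa minus WT-aa) over the 54 genes was 0.02 on the log2 scale, with values from -0.14 for MRPS28 to 0.16 for MRPL50. The medians at 0, 15, 30 and 60 min were 0.02, 0.02, 0.0035 and -0.02. Those of all features lay between -0.01 and 0.0026 over the 5 times.

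Genes known to depend on Hsf1 differed on the same arrays. At 90 min HSP82, the inducible Hsp90, differed by -2.98 ± 0.15 (adjusted p = 5.09e-08), and 17 of 17 tested chaperone targets of Hsf1 were lower. Of 8 chaperone genes of the mitochondrial matrix 6 were lower. HSP60 and HSP10, the mitochondrial chaperonin and its lid, differed by -1.23 ± 0.12 and -1.03 ± 0.10, and SSC1, the Hsp70 of the import motor and the matrix, by -0.91 ± 0.06. None of the 54 ribosomal protein genes had a 95% interval that reached -0.91 at this time.

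The precision of the arrays sets what such a count can say. The SE of a strain difference was 0.09 on the log2 scale at the median over the 54 genes and ran from 0.06 to 0.16. At 90 min the 95% interval of the difference lay inside 1.5-fold in either direction for 54 of 54 genes. For all features the share was 96.2%. The outermost bounds at 90 min were -0.47, for MRPS28, and 0.41, for MRPL28. At 30 min, 52 of 54 intervals lay inside 1.5-fold, and at 60 min 53 of 54. The bounds beyond were -0.70 for MRPS28 and 0.60 for MRPL15 at 30 min and 0.75 for MRP20 at 60 min.

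**Figure D1:**
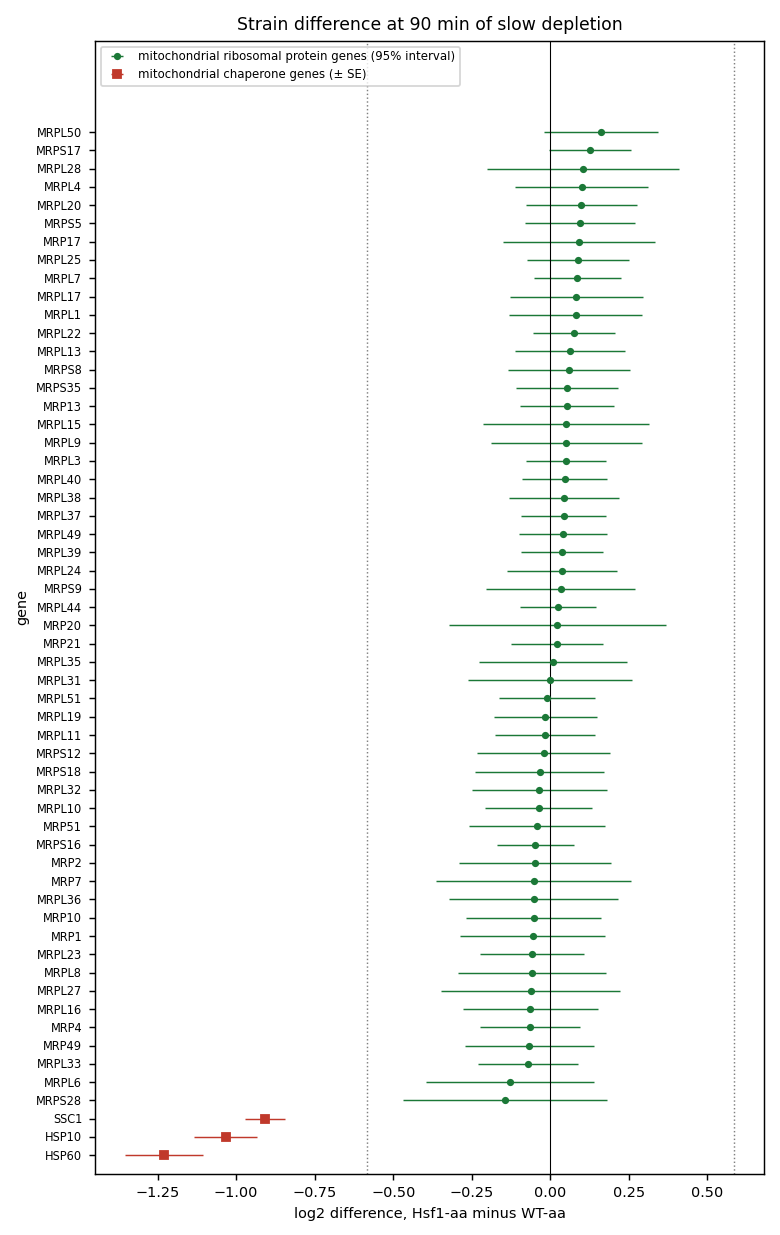
Log2 difference between the strains (Hsf1-aa minus WT-aa) at 90 min of slow depletion for the 54 mitochondrial ribosomal protein genes (green, with 95% intervals from the limma fit) and for 3 chaperone genes of the matrix (red, with SE). Dotted lines mark 1.5-fold in either direction. All 54 green intervals lie between them, from -0.47 to 0.41, while SSC1, HSP10 and HSP60 lie at -0.91 to -1.23.

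The genes at the ends of this order differed little between the strains. MRPL50, the counterpart of bacterial bL9, read 0.09 and 0.12 in Hsf1-aa at 90 min and -0.09 and -0.02 in WT-aa, a difference of 0.16 ± 0.08. MRPS28, the counterpart of uS15, an early binder of small-subunit rRNA in Escherichia coli, read -0.35 and -0.32 in Hsf1-aa and -0.22 and -0.17 in WT-aa, a difference of -0.14 ± 0.15. Both pairs of arrays were apart, yet by no more than 2 SE. The other high genes were MRPS17 (0.13), MRPL28 (0.10), MRPL4 and MRPL20 (0.10 each), and the other low ones MRPL6 (-0.13), MRPL33 (-0.07), MRP49 (-0.07) and MRP4 (-0.06). At 90 min both Hsf1-aa arrays lay above both WT-aa arrays for 8 of the 54 genes and below them for 2, while 10% and 9.73% of all features did so.

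Unadjusted p-values under 0.05 were met by 0, 5, 9, 3 and 0 of the 54 genes at 0, 15, 30, 60 and 90 min. Over all features the shares were 1.67%, 9.71%, 13.7%, 16.1% and 3.97%. The 9 genes at 30 min lay in both directions. MRPL15 (0.33 ± 0.12) and MRPL17 (0.33 ± 0.10) encode proteins of the large subunit without a bacterial counterpart and were the highest, while MRPS28 (-0.38 ± 0.15) and MRP4 (-0.23 ± 0.07), the counterpart of uS2, were the lowest. Their adjusted p-values were 0.316 to 0.364 (limma). The widest difference at 60 min was that of MRP20, the counterpart of uL23 at the exit of the nascent chain tunnel, at 0.41 ± 0.16 (adjusted p = 0.279). At 15 min both Hsf1-aa arrays lay above both WT-aa arrays for 17 of 54 genes (18.7% of all features) and below for 1 (13.5%).

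A strain difference present before rapamycin would be carried through all times, so the change of the difference from 0 min was tested too. Of the 54 genes 0 passed at 15, 30, 60 or 90 min, against 0%, 0.11%, 0.661% and 0.756% of all features. At 90 min 0 of the 54 genes had an unadjusted p under 0.05 (2.17% of all features), and the median change was 0.02. MRPL15 (0.23), MRPL17 (0.18), MRP20 (0.15), MRPL50 (0.14) and MRPL25 (0.14) were the highest. MRPL16 (-0.24), MRPS28 (-0.21), MRP51 (-0.17), MRP2 (-0.17) and MRPL36 (-0.16) were the lowest. MRPL16, the counterpart of uL16, which joins bacterial large subunits late in their assembly, read 0.35 and -0.11 in Hsf1-aa at 0 min, so its arrays disagreed before rapamycin. For 51 of 54 genes the 95% interval of this change lay inside 1.5-fold (88.4% of all features). The outermost bounds were -0.67 for MRPS28 and 0.63 for MRP20.

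Changes over time were small. Averaged over both strains, with 4 arrays a time, 4 of the 54 genes were higher at 90 than at 0 min and 0 were lower, where 6.08% of all features passed, 2.53% higher and 3.54% lower. As a count in either direction this is close to the share of all features. The 4 genes were MRPS5 (0.26 ± 0.06, adjusted p = 0.0167), MRPL10 (0.25 ± 0.06, adjusted p = 0.0174), MRPL40 (0.19 ± 0.04, adjusted p = 0.0242) and MRPS17 (0.18 ± 0.04, adjusted p = 0.0285), by limma. Each rise was 1.13-fold to 1.2-fold. Over the 54 genes the median change was 0.06, against -0.001 for all features, and 38 of 54 lay above 0, against 49.6% of all features. The number of calls moved with the arrays used, for the 54 genes and for all features (386 calls with all arrays). It was 0 of 54 without Hsf1-aa replicate b at 90 min (194 features), WT-aa replicate b at 0 min (172) or WT-aa replicate b at 90 min (193), 1 without Hsf1-aa replicate b at 0 min (213), 2 without Hsf1-aa replicate a at 0 min (190) or WT-aa replicate a at 90 min (199), and 7 without either Hsf1-aa array at 30 min (651 each). Without the replicate letter, which is also the dye, as a replicate block 1 of 54 passed (154 features), and with array quality weights 15 (1129). Under all 32 alternatives the changes of the 4 genes kept their direction, at 0.23 to 0.30 for MRPS5, 0.20 to 0.31 for MRPL10, 0.16 to 0.22 for MRPL40 and 0.13 to 0.21 for MRPS17.

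MRPS5 (YBR251W, chromosome II in the R64 annotation) encodes the counterpart of uS5, which in bacteria lies beside the channel where the message enters. It read -0.02 and -0.12 in WT-aa and -0.05 and -0.09 in Hsf1-aa at 0 min. At 15 min it read -0.09 and 0.02 in WT-aa and 0.09 and 0.10 in Hsf1-aa, and at 30 min -0.10 and 0.03 against 0.11 and 0.09. At 60 min it read 0.01 and 0.10 in WT-aa and 0.21 and 0.05 in Hsf1-aa, and at 90 min 0.06 and 0.23 against 0.17 and 0.31. All 4 arrays at 90 min lay above all 4 at 0 min, and the strains overlapped at 0, 60 and 90 min.

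MRPL10 (YNL284C, chromosome XIV) encodes the counterpart of uL15, a protein of the core of the large subunit. It read 0.00 and -0.03 in WT-aa and -0.10 and 0.07 in Hsf1-aa at 0 min, and 0.16 and 0.36 against 0.07 and 0.38 at 90 min. The lowest array at 90 min (0.0699) lay just below the highest at 0 min (0.0711), so the times overlapped. At 30 min its mean was -0.12 in WT-aa and 0.08 in Hsf1-aa, a strain difference of 0.20 ± 0.08 that did not pass (limma adjusted p = 0.364).

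MRPL40 (YPL173W, chromosome XVI) encodes the counterpart of uL24, which starts the assembly of the large subunit in Escherichia coli. It read -0.07 and -0.04 in WT-aa and -0.02 and -0.06 in Hsf1-aa at 0 min, and 0.06 and 0.18 against 0.08 and 0.25 at 90 min. MRPS17 (YMR188C, chromosome XIII) encodes the counterpart of uS17, a primary rRNA binder of the bacterial small subunit. It read -0.01 and -0.04 in WT-aa and -0.04 and -0.03 in Hsf1-aa at 0 min, and 0.06 and 0.11 against 0.13 and 0.29 at 90 min. In both genes all 4 arrays at 90 min lay above all 4 at 0 min, and letter b read higher than letter a at 90 min in each strain.

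**Figure D2:**
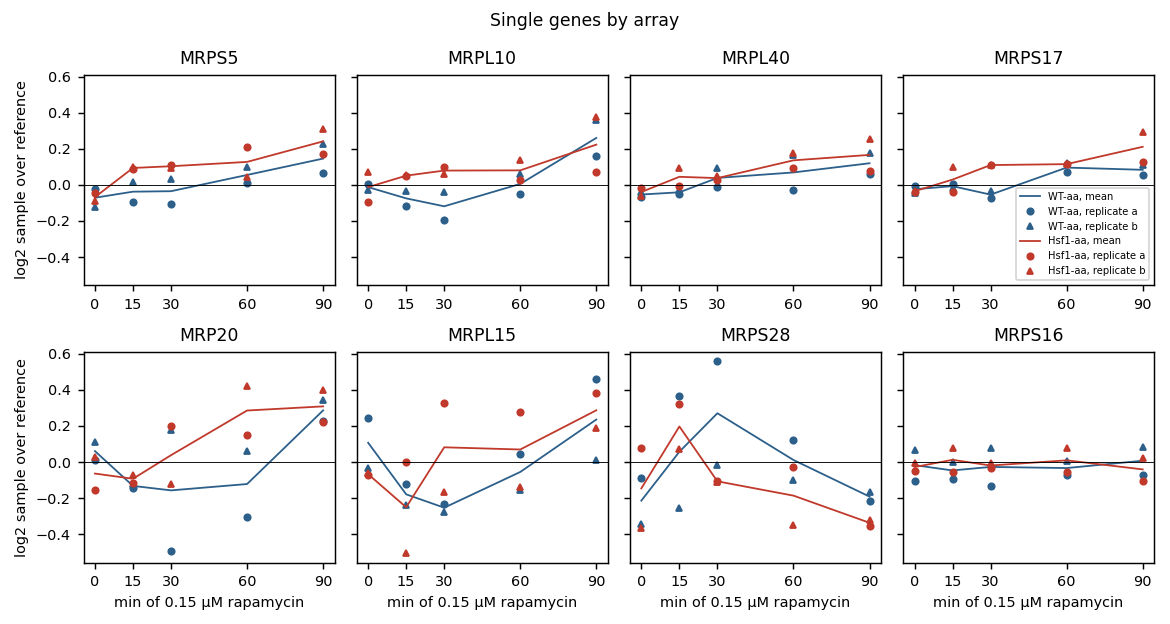
Log2 sample over reference on each slow array against minutes of 0.15 µM rapamycin for 8 genes. Circles are replicate a, triangles replicate b and lines the means of 2 arrays, with WT-aa in blue and Hsf1-aa in red. The upper row holds the 4 genes that were higher at 90 min. The lower row holds the 3 genes with the widest range of group means (MRP20, MRPL15 and MRPS28) and MRPS16, the narrowest. In MRP20, MRPL15 and MRPS28 the 2 arrays of a group often lie farther apart than the strains.

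In all, 8 of the 54 genes had all 4 arrays at 90 min above all 4 at 0 min, and 0 had them all below, where 7.52% and 6.3% of all features did. Beside MRPS5, MRPL40 and MRPS17 these were MRP1, MRP20, MRPL24, MRPL25 and MRPL9, none of which passed the test. MRP20 had the largest change of the 54 genes at 0.30 ± 0.11 (adjusted p = 0.131), then MRPL9, the counterpart of uL3 near the peptidyl transferase centre, at 0.28 ± 0.08 (adjusted p = 0.0573). MRPL15, at 0.24 ± 0.09 (adjusted p = 0.114; limma for all 3), lay below MRPS5 and MRPL10 and above MRPL40 and MRPS17. An unadjusted p under 0.05 was met by 17 of 54 genes, against 24.4% of all features.

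By subunit and origin the 90 min change was uneven in direction, though small throughout. Among 23 large-subunit genes with a bacterial counterpart 19 lay above 0, with a median of 0.07, and 2 passed (MRPL10 and MRPL40). Among 14 large-subunit genes without one 10 lay above 0, with a median of 0.04, and 0 passed. Among 13 small-subunit genes with a counterpart 6 lay above 0, with a median of -0.0077, and 2 passed (MRPS5 and MRPS17). Of 4 small-subunit genes without one (MRP1, MRP10, MRP13 and MRPS35) 3 lay above 0, with a median of 0.12. Of all features 49.6% lay above 0, and 2.53% passed as higher and 3.54% as lower. Whether these groups differ from each other was not tested.

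The lower end of the order at 90 min passed no test. MRPS12, the counterpart of uS12 in the decoding centre, had the lowest value at -0.13 ± 0.07. It read -0.08 and 0.11 in WT-aa and 0.04 and 0.15 in Hsf1-aa at 0 min, and -0.13 and -0.01 against -0.09 and -0.09 at 90 min. MRPL27 (-0.13), MRPL28 (-0.10), MRP17 (-0.09) and MRPS28 (-0.08) came next. MRPL27, MRPL28 and MRPL15 encode large-subunit proteins with no bacterial counterpart, so such genes stood at both ends.

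**Figure D3:**
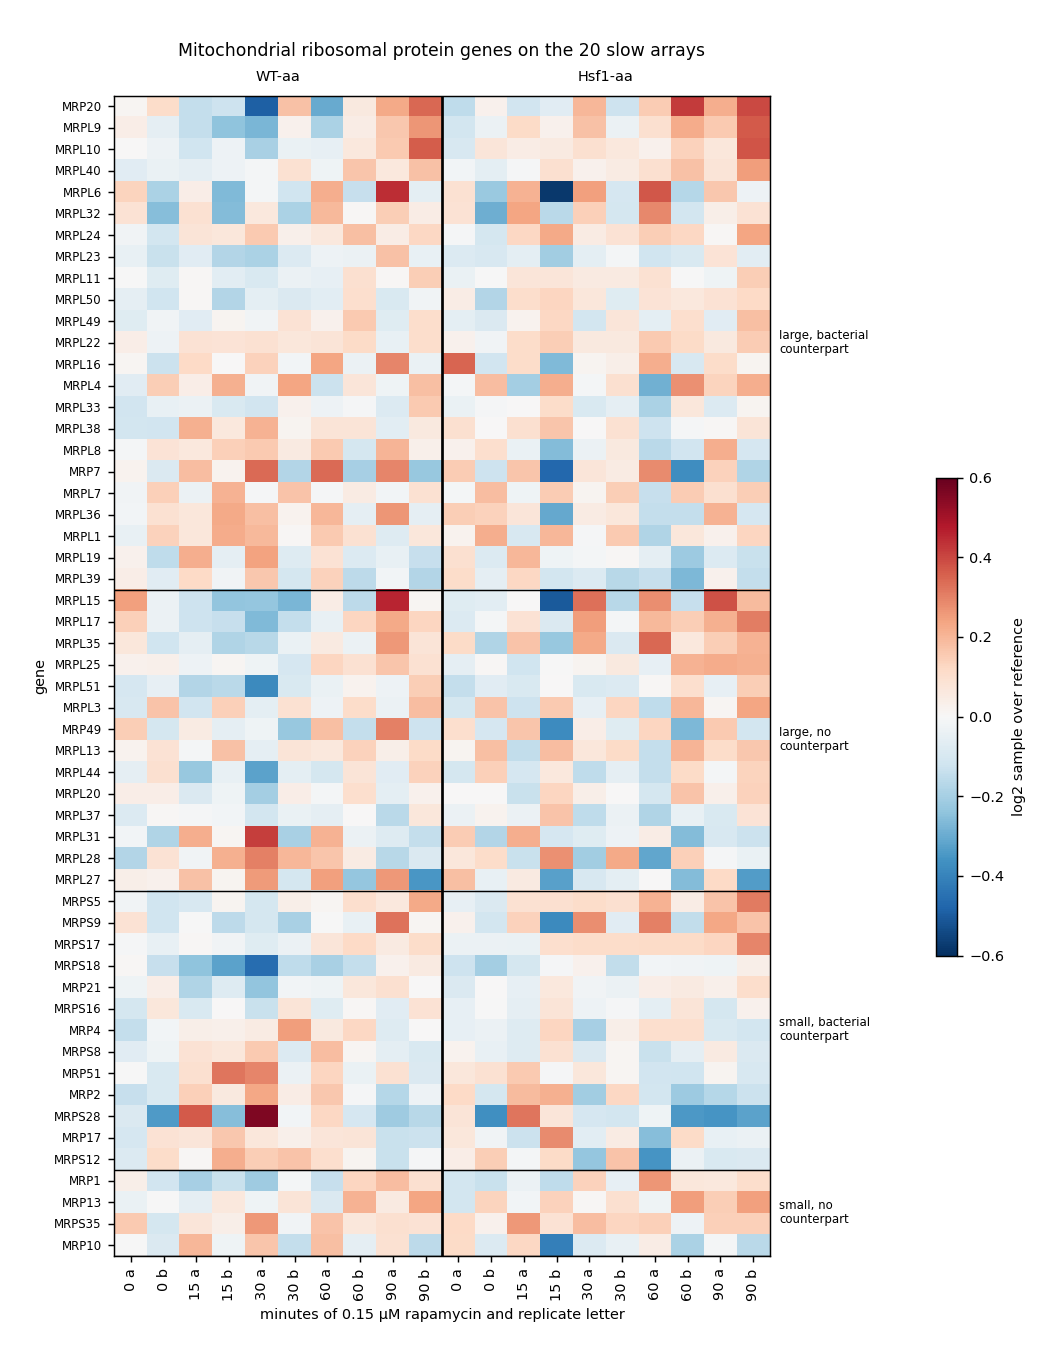
Log2 sample over reference of the 54 genes (rows) on the 20 slow arrays (columns, by strain, minutes of rapamycin and replicate letter), with red above and blue below the reference. Horizontal lines part the large and small subunit and genes with and without a bacterial counterpart, and rows are ordered within each block by the change at 90 min. Rows such as MRP7 and MRPL6 alternate between letters a and b, and the rows of MRP20, MRPL9 and MRPL10 are red in all 4 columns at 90 min.

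At 15, 30 and 60 min 0 of the 54 genes passed the test against 0 min with the strains averaged, where 4.8%, 0.708% and 2.35% of all features did. An unadjusted p under 0.05 was met by 7, 3 and 10 of the 54 genes (limma), against 22.5%, 11.5% and 13.5% of all features. The medians were 0.0042, 0.01 and 0.03, and the counts above 0 were 30, 34 and 36. MRPL24, the counterpart of bL28, was the nearest to a call at 15 min, at 0.19 ± 0.06 (adjusted p = 0.0829). When the arrays were centred on external control RNA, the medians at 15 and 30 min turned to -0.02 and -0.01, where all features moved to -0.03 at both times.

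Within a strain 0 of the 54 genes passed at any time against 0 min. The shares of all features were 1.18%, 0.693%, 1.98% and 2.69% at 15, 30, 60 and 90 min in Hsf1-aa, and 0.236%, 0.189%, 0.394% and 0.976% in WT-aa. At 90 min an unadjusted p under 0.05 (limma) was met by 13 genes in Hsf1-aa, against 18.9% of all features, and by 4 in WT-aa, against 7.46%. The median change at 90 min was 0.08 in Hsf1-aa, with 33 of 54 genes above 0, and 0.07 in WT-aa, with 42 of 54 above 0. MRPS17 came nearest to a call in Hsf1-aa, at 0.25 ± 0.06 (adjusted p = 0.0507), and MRPL10 in WT-aa, at 0.27 ± 0.08 (adjusted p = 0.226). With WT-aa replicate b at 30 min left out, 8 of the 54 genes passed at 30 min in WT-aa, together with 1393 of all features. Both strains were set against the same reference pool, and the values are given side by side only.

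The median over the 54 genes was also read on single arrays. At 0 min it was -0.01 and -0.04 in WT-aa and 0.0094 and -0.03 in Hsf1-aa. At 90 min it was 0.04 and 0.06 in WT-aa and 0.06 and 0.10 in Hsf1-aa, above all 4 arrays at 0 min. At 15 min it was 0.0053 and -0.0083 in WT-aa and 0.01 and 0.07 in Hsf1-aa. At 30 min it was -0.02 on both WT-aa arrays and 0.02 and 0.01 in Hsf1-aa. At 60 min it was 0.06 and 0.05 in WT-aa and -0.0069 and 0.06 in Hsf1-aa. The medians at 90 min were thus not set apart from all those at 15 and 60 min.

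**Figure D4:**
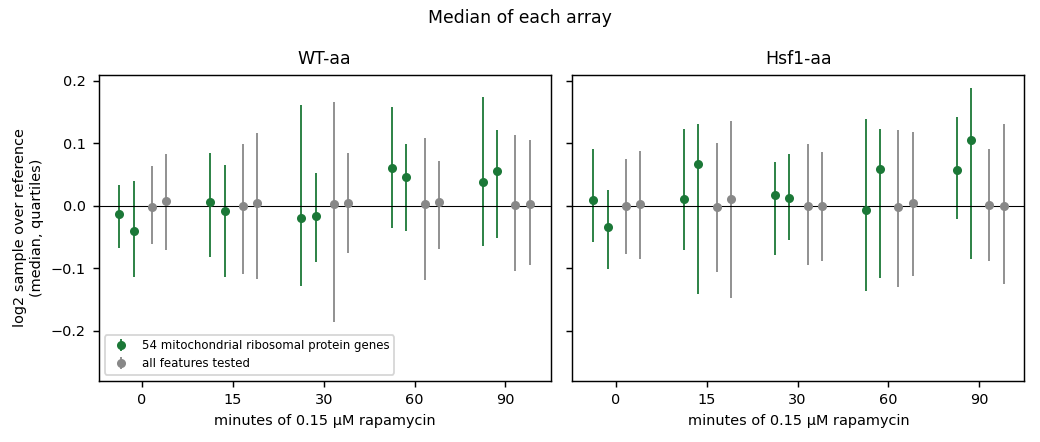
Median and quartiles of log2 sample over reference on each slow array for the 54 genes (green) and for all 6353 features tested (grey), by strain and minutes of 0.15 µM rapamycin, with replicate a to the left of replicate b. The green medians at 90 min lie between 0.04 and 0.10 and those at 0 min between -0.04 and 0.0094. Green medians at 15 and 60 min reach up to 0.07 and 0.06. The grey medians stay near 0, where loess normalisation sets them.

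The 54 genes varied little over the 10 groups of strain and time. The range of the group means had a median of 0.25 over the 54 genes, against 0.29 over all features. Only MRPS28 (0.61) and MRPL15 (0.54) went past 0.5, as did 13.9% of all features. MRPS16, the counterpart of bS16, had the narrowest range at 0.06, followed by MRPL3 (0.11), a large-subunit protein with a ribonuclease III fold, and MRPL7 (0.12), the counterpart of uL5 in the central protuberance. MRPS16 read between -0.13 and 0.08 on single arrays.

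In the genes with wide ranges the arrays of some groups disagreed and those of others lay close. MRPS28 read 0.56 on replicate a and -0.02 on replicate b of WT-aa at 30 min, and 0.37 against -0.25 at 15 min, but -0.35 and -0.32 in Hsf1-aa at 90 min. MRP20 read -0.49 against 0.18 in WT-aa at 30 min and -0.30 against 0.06 at 60 min, but 0.23 and 0.35 at 90 min. MRPL15 read 0.33 against -0.17 in Hsf1-aa at 30 min and 0.46 against 0.01 in WT-aa at 90 min. Between the arrays of a group the values of the 54 genes correlated at r = -0.45 (WT-aa, 60 min) to 0.437 (Hsf1-aa, 90 min), and those of all features at -0.208 to 0.736. The dye term of the fit, which takes up a constant offset between letters a and b, had a median size of 0.12 over the 54 genes and 0.10 over all features. Its extremes, named after their values were seen, were -0.38 for MRPL6 and MRP7 and 0.24 for MRPL4.

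Likeness of pattern among the 54 genes was uneven. The Pearson correlation of a gene's 10 group means with the median of the other 53 genes had a median of 0.32, exceeded 0.5 for 19 of 54 genes and fell below 0 for 19. Of all other features 12% exceeded 0.5 against the median of the 54. The closest were MRP13 (0.89), a small-subunit protein without a bacterial counterpart, MRPL40 (0.88), MRPS5 (0.87), MRPS17 (0.81) and MRPL32 (0.81), whose protein is cut by the m-AAA protease before it joins the ribosome. MRPL27 was the farthest, at -0.62. MRP13 read -0.04 and -0.0018 in WT-aa and -0.11 and 0.14 in Hsf1-aa at 0 min, and 0.05 and 0.24 against 0.15 and 0.25 at 90 min, with its letters apart throughout. Among features with a gene symbol outside the 54 genes, those most like their median were VHT1, a vitamin H (biotin) transporter (0.92), CLB6, a B-type cyclin (0.91), GUD1, a guanine deaminase (0.89), BIO3, an enzyme of biotin synthesis (0.87), and PRM6 (0.87). A probe without a gene symbol reached 0.96. These are descriptions over 10 group means that share a reference pool and the same arrays.

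Other genes of the mitochondrial translation system gave few calls as well. Of 25 further mitochondrial ribosome genes whose symbols do not begin with MRP, the change at 90 min with the strains averaged had a median of 0.10, and 14 lay above 0. RSM25 was higher by 0.36 ± 0.09 (limma adjusted p = 0.0419), and RSM19, which encodes the counterpart of uS19, was lower at -0.25 ± 0.06 (adjusted p = 0.0224). RSM19 is the next gene upstream of MRPS12, the lowest of the 54, on the same strand. Of 34 genes for translation factors, tRNA synthetases and translational activators 0 were higher and 1 was lower, MEF2, a factor of ribosome recycling, at -0.28 ± 0.06 (adjusted p = 0.0242). Of 10 tested assembly factor genes of the mitochondrial ribosome 0 passed, with a median of 0.05. None of these 3 lists had a call between the strains at 30, 60 or 90 min. Within Hsf1-aa, MEF2 was lower at 60 min (-0.48 ± 0.09, limma adjusted p = 0.014) and at 90 min (-0.38 ± 0.09, adjusted p = 0.0474). RSM19 was lower in Hsf1-aa at 90 min (-0.34 ± 0.08, adjusted p = 0.0443). Within WT-aa no gene of these lists passed.

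Wider gene sets gave calls at 15 min. Of 59 genes for the making of cytosolic ribosomes 20 were lower at 15 min (median -0.24), and of 34 respiratory chain and ATP synthase genes 5 were higher (median 0.10), among them SDH1 at 0.37 ± 0.04 (limma adjusted p = 4.45e-04). Of the mitochondrial translation genes 3 of 34 were higher: AIM23 (0.36), MSF1 (0.28) and PET54 (0.27). Of the 54 ribosomal protein genes 0 passed at this time, as of 126 cytosolic ribosomal protein genes. At 90 min 0 of 126 cytosolic ribosomal protein genes passed (median 0.0019), 0 of 59 ribosome biogenesis genes (median -0.01), and 1 of 34 respiratory genes was higher, ATP5 at 0.17 ± 0.05 (adjusted p = 0.0447). Of 24 genes of the import machinery 1 was lower, TIM8 at -0.26 ± 0.06 (adjusted p = 0.0219).

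The surroundings of the genes were looked at for shared control regions. In the R64 annotation 31 of the 54 genes (57.4%) have an upstream neighbour on the opposite strand that is read away from them, against 51.7% of 5992 protein-coding genes. Of 29 such neighbours tested 0 passed between the strains at 90 min. In any of the 21 contrasts 2 did: URA7, beside MRPL16, was lower at 60 min in Hsf1-aa (-0.31, adjusted p = 0.0341), and RRP12, beside MRPS16, was lower at 15 min with the strains averaged (-0.41, adjusted p = 0.00431). Neither MRPL16 nor MRPS16 passed in those contrasts. Among 49 tested upstream neighbours of any orientation 0 passed between the strains at 60 or 90 min.

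The standard depletion, at the higher rapamycin dose, was read by 1 array per strain, with no replicate and thus no test. The strain difference over the 54 genes had a median of -4.6e-04 and ran from -0.21 (MRP51) to 0.23 (MRPL50). A log2 difference of 0.5 or more was reached by 0 of 54 genes in either direction, where 0.375% of 6134 features measured on both arrays were higher by that much and 0.815% lower. MRPL50 (0.08 in Hsf1-aa, -0.15 in WT-aa), MRPL36 (0.50 and 0.29) and MRPL6 (0.02 and -0.17) stood highest. MRP51 (0.06 and 0.27), MRPL10 (-0.16 and 0.03) and MRPS12 (-0.97 and -0.79) stood lowest. Of 17 chaperone targets of Hsf1 on these arrays 16 were lower by 0.5 or more.

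These arrays set labelled RNA against unlabelled total RNA of another strain, so a high value can mark a gene with much new RNA for its standing pool. The 54 genes lay somewhat high, with a median of 0.19 in Hsf1-aa and 0.21 in WT-aa against 0.02 and 0.03 for all features, and 37 and 36 of 54 above 0 (all features 52.9% and 53%). Ribosome biogenesis genes had medians of 0.73 and 0.72, cytosolic ribosomal protein genes -0.39 and -0.30 and respiratory chain genes -0.52 and -0.51. MRPL3 (0.65 and 0.63), MRPS17 (0.63 and 0.67), MRP13 (0.59 and 0.56) and MRPS5 (0.49 and 0.56) were high in both strains. MRPS12, MRPS18 (-0.53 and -0.55), MRPL44 (-0.53 and -0.54) and MRPL37 (-0.45 and -0.40) were low in both. The reference came from another strain and growth protocol, its channel was dim (1.36 to 14.2 times background for the 54 genes on the Hsf1-aa array, 1.58 to 26.5 on the WT-aa array), and the sample was in Cy5 on both arrays. The part of these in the values was not tested.

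**Figure D5:**
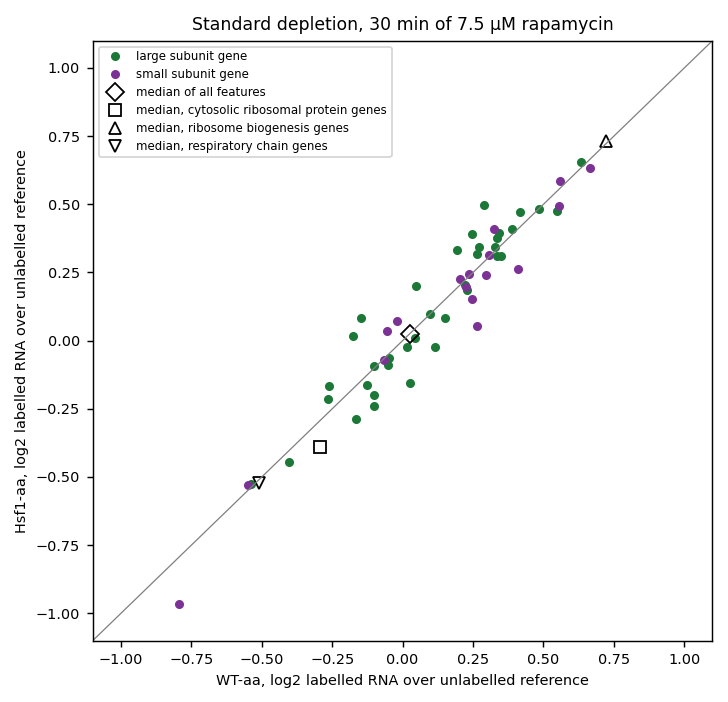
Log2 ratio of labelled to unlabelled RNA in the standard depletion (30 min of 7.5 µM rapamycin) in Hsf1-aa against WT-aa, 1 array each, for large-subunit genes (green) and small-subunit genes (purple). Open symbols are medians of all features and of 3 other gene lists, and the line marks equal values. Every gene lies no more than 0.23 above or below the line, and the spread along it runs from MRPS12 (-0.97 and -0.79) to MRPL3 (0.65 and 0.63).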

How the data were processed

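Per the file headers, the deposited scanner files give linear intensity for both dyes at every spot, with the local background listed apart and not subtracted. The authors' deposited value table holds log2 ratios of Cy5 to Cy3. Their normalisation is not stated in the labels or headers. Each column followed the ratios made here at r = 0.631 to 0.971 across yeast spots, in the same direction. Signal Mean and Background Median were background-corrected by normexp (offset 50) and normalised by loess within each of the 22 arrays, with control spots at weight 0. Every ratio was expressed as sample over reference, with spots averaged per gene on the log2 scale. Since loess centres each array at 0, it hides any shift common to the whole genome. A feature was tested (6353 of 6373) where its sample signal exceeded background by 2 SD in 2 or more of the 20 slow arrays.

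A single limma model (version 3.58.1 in R 4.3.3, lmFit then eBayes) covered all slow arrays. It had a mean for each of the 10 groups plus the dye, which coincides with the replicate letter, and 9 residual degrees of freedom. Tests were two-sided, with Benjamini-Hochberg adjustment over all features of each of 21 contrasts and a threshold of 0.05. Errors are SE of this fit, with n = 2 arrays a group. The fit was tested on simulated data. Gene names came from the platform annotation, brought up to date through RefSeq R64. Subunit and origin were listed by hand, and the RefSeq synonyms gave the same split for all 54 genes. By rule, named genes were those past the threshold, the 5 highest and lowest in 3 contrasts at 90 min, the 3 widest and 3 narrowest ranges, and the 5 closest to the median pattern. Further genes, such as the extremes of signal, of other times and of the standard arrays, were named after their values were seen. The members, lists and rules were chosen with earlier results of these data known. The number of arrays limits the precision. No sequences are printed.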

Additional observations from a re-analysis of the deposited data

How the results depend on the processing

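Under 32 alternatives (12 settings and 20 in which 1 array was left out) none of the 4 calls at 90 min changed direction. The call was kept in 27 of 32 by MRPS5, in 27 by MRPL10, in 23 by MRPL40 and in 22 by MRPS17, with adjusted p-values up to 0.108, 0.113, 0.147 and 0.161. The count called at 90 min with the strains averaged was 2 with pixel medians (323 of all features), 8 with the authors' table (640), 15 with array quality weights (1129), 1 without the replicate block, the dye term (154), and 8 when only the groups compared were fitted (797). With the settings and arrays as reported 386 features passed, so the count moved with that of all features. Leaving out 1 array gave 0 to 7. The members' median there stayed above 0 in all 32, from 0.05 to 0.07.

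Array quality weights also gave calls in other contrasts, listed here with the calls over all features in brackets. In Hsf1-aa the weights gave 2 at 60 min (525) and 2 at 90 min (321). In WT-aa the weights gave 3 at 15 min (791) and 1 at 90 min (159). With the strains averaged the weights gave 5 at 15 min (1079) and 1 at 60 min (285). Fitting only the groups compared gave 5 in Hsf1-aa at 60 min (1039) and 5 in Hsf1-aa at 90 min (849). It gave 9 in WT-aa at 15 min (1847) and 3 at 15 min with the strains averaged (1000). Calls over all features thus rose alike. In Hsf1-aa at 90 min external control centring (159), pixel medians (148) and no filter (172) gave 1 each. The authors' table gave 2 there (278), and 1 at 30 min with the strains averaged (93). The causes were not tested. Between the strains the 12 settings gave 0 calls at every time. Leaving out 1 array left 1 array in its group, and only effect sizes are listed here. At 30 min some such fits called members between the strains and in the change of the strain difference. Others did so in WT-aa and with the strains averaged. In all of these the calls over all features rose too. In Hsf1-aa at 90 min some fits also called members, while the calls over all features moved either way. Without Hsf1-aa replicate b at 30 min the strain differences of MRPL17, MRP4 and MRP2 there were 0.454, -0.315 and -0.373. Without WT-aa replicate b at 30 min that of MRPS18 was 0.41.

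Centring on the external control RNA turned the members' median between the strains to -0.0074 at 0 min and to 0.0016 at 60 min. The members' median change of the strain difference turned from -0.01 to 0.03 at 30 min and from -0.03 to 0.02 at 60 min. In WT-aa the members' median turned to -0.02 and -0.01 at 15 and 30 min, where the median of all features moved to -0.04 and -0.05. Arrays at 30 min had weights of 0.449 (Hsf1-aa) or 0.442 (WT-aa), those at 0 min 1.62 or 1.51, so p-values may be too small at 30 min and too large at 0 min. The replicate letter marks the dye, and no pairing of cultures between strains is stated. Scan date or slide as a block was not run, since the file headers give neither.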
